A study of Mus musculus with 18 samples.

Results

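The sodium pump genes described here are Atp1b1 and Atp1b3, which encode the beta1 and beta3 subunits of the Na,K-ATPase, and Fxyd1, which encodes phospholemman. They were taken by symbol from the deposited table, where they are 3 of 24341 genes, and all 3 were among the 12587 genes that passed the filter on low values (at least 1 FPKM in at least 3 libraries). FPKM is a transcript level scaled for transcript length and library size. The samples were whole hearts of 12-week-old C57BL/6 mice, WT or labelled Med13 cKO, a cardiac-specific knockout of Med13, a gene for a part of the Mediator complex. The sources used here do not name the promoter that drove the deletion. Each genotype was fed normal chow, a diet with propylthiouracil (PTU, which blocks the making of thyroid hormone), or the PTU diet followed by injections of triiodothyronine (T3, the active hormone). The diets began at 8 weeks of age and ran for 4 weeks, T3 was given once a day on 3 days, and each of the 6 groups had 3 libraries. Library titles carry a different number each, but nothing states outright that they are separate animals, so the p-values below speak of variation among these libraries, technical variation included.

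The Na,K-ATPase uses ATP to move sodium out of the cell and potassium in. Its catalytic subunit carries out the transport, and its beta subunit is a glycoprotein that the catalytic subunit needs in order to fold and reach the cell surface. Phospholemman, abundant in heart muscle, holds the pump back until it is phosphorylated by protein kinase A or C. The sodium gradient that the pump builds drives calcium out of the cardiomyocyte through the sodium-calcium exchanger, so pump activity bears on contraction. Thyroid hormone is known to raise sodium pump expression in the heart.

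Some facts of the whole series bear on every value below. Each library had at least 11679 and at most 12093 genes at 1 FPKM or more. Read totals are not in the table, so the depth is unknown and no counting interval is given. Med13 averaged 5.87 FPKM in WT hearts and 5.83 FPKM in the hearts labelled cKO, so the gene-level value does not separate the genotypes, and every genotype direction below rests on the labels. Genes of heart muscle (Actn2, Myl2, Ryr2, Tnnt2, Tnni3 and Ttn) were abundant in every library, with summed levels between 24150 and 52880 FPKM. The hearts differed in atrial genes (Bmp10, Myl4, Myl7, Nppa and Sln), whose sum ran from 533.7 to 10240 FPKM, with a wide range inside most groups and none of the 5 genes called in a treatment comparison. In whole hearts, fewer cells of a type and less RNA per cell cannot be told apart.

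Atp1b1 (ENSMUSG00000026576.12) lies on the minus strand of chromosome 1 from 164437109 to 164458355 (GRCm38, the mm10 assembly). Its 3' end overlaps Nme7 on the other strand by 617 bases. The libraries do not mark the strand, and Nme7 was low, at 1.52 to 4.39 FPKM. Atp1b3 (ENSMUSG00000032412.8) spans 96332655 to 96364442 on chromosome 9 and Fxyd1 (ENSMUSG00000036570.14) spans 31051678 to 31057199 on chromosome 7, both on the minus strand, and neither overlaps another annotated gene. The 250 bases before each RefSeq start site (GRCm38.p6) are shown because the 3 genes moved in the same direction between the PTU and T3 hearts, and because thyroid hormone receptors bind repeats of a short hexamer. Windows are chr1:164458356-164458605 for Atp1b1, chr9:96364432-96364681 for Atp1b3 and chr7:31054854-31055103 for Fxyd1, all on the minus strand and written 5' to 3', with matches to AGGTCA or GGGTCA on either strand in capitals.
Atp1b1: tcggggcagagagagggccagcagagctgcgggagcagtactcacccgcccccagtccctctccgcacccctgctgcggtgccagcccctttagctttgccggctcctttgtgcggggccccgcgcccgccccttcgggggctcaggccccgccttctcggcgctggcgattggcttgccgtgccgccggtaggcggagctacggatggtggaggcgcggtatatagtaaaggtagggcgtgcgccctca
Atp1b3: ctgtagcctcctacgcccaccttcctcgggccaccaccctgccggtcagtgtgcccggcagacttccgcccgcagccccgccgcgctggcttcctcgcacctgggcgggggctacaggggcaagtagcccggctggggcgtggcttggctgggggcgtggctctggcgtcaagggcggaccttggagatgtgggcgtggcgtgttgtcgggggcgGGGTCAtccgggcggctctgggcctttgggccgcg
Fxyd1: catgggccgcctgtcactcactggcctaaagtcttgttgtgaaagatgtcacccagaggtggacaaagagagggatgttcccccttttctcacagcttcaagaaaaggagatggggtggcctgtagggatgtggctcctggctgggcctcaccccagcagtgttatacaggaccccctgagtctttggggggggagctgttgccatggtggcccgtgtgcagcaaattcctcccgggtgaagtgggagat
Atp1b3 alone of the 3 windows held a match, 1 GGGTCA that begins 35 bases before the start site, and AGGTCA was in none of them. Of 32851 RefSeq promoter windows of the same length, 11.6% held GGGTCA, 14% held AGGTCA and 23.8% held either on at least one strand. The hexamers were chosen after the sequences had been seen, and a match is a description of letters, not of a bound site. GC content was 70.4% for Atp1b1, 73.6% for Atp1b3 and 57.2% for Fxyd1. The Fxyd1 start lies 803 bases inside the 5' end of the locus given in the deposited FPKM table, so another start may be in use. That table's locus for Atp1b1 runs from 164307671 to 164458355, which is wider than the annotated gene. For Atp1b3, RefSeq held 2 start sites and the one nearest to the 5' end of that locus was used.

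Atp1b1 was the most variable of the 3 genes across the series: its highest library was 4.13 times its lowest, against 1.69 times for Atp1b3 and 1.75 times for Fxyd1. By mean level per transcript length over the 18 libraries, Fxyd1 ranked 146th of the tested genes at 748.8 FPKM. Atp1b1 followed at rank 474 with 184.2 FPKM, and Atp1b3 at rank 1725 with 46.3 FPKM. The spread of log2(FPKM + 1) within groups was 0.18 for Atp1b1, 0.11 for Atp1b3 and 0.13 for Fxyd1, where the median tested gene had 0.15.

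Atp1b1 encodes the main beta subunit of the heart muscle pump. On chow its level was 140.6, 135.3 and 131.8 FPKM in the WT hearts and 152.9, 143.9 and 114.5 FPKM in the hearts labelled cKO. On PTU it was 100.6, 89.9 and 98.1 FPKM in WT and 88.9, 112.7 and 92.7 FPKM in cKO hearts. After T3 it reached 254.2, 307.2 and 367.5 FPKM in WT and 358.9, 343.7 and 283.0 FPKM in cKO hearts. Every T3 heart stood above every chow heart, and every chow heart stood above every PTU heart, in both genotypes. The smallest gap was between the lowest chow heart and the highest PTU heart, both labelled cKO. Group means in ascending order were 96.2 ± 5.62 (WT PTU), 98.1 ± 12.8 (cKO PTU), 135.9 ± 4.42 (WT chow), 137.1 ± 20.1 (cKO chow), 309.6 ± 56.7 (WT T3) and 328.6 ± 40.2 FPKM (cKO T3; SD, n = 3 each). Neighbours in that order that share a treatment did not differ beyond their spread, and their libraries overlapped.

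Atp1b3 encodes a beta subunit found in many tissues. Its level on chow was 44.5, 45.5 and 49.5 FPKM in WT and 49.8, 41.2 and 53.1 FPKM in cKO hearts. On PTU the values were 36.8, 37.0 and 34.2 FPKM in WT and 35.6, 44.1 and 39.5 FPKM in cKO hearts. After T3 they were 54.5, 57.7 and 54.9 FPKM in WT and 55.0, 51.9 and 49.7 FPKM in cKO hearts. The 3 WT groups did not overlap, whereas in the hearts labelled cKO the chow group overlapped both others. Means rose from 36.0 ± 1.58 (WT PTU) and 39.7 ± 4.26 (cKO PTU) through 46.5 ± 2.64 (WT chow) and 48.0 ± 6.13 (cKO chow) to 52.2 ± 2.67 (cKO T3) and 55.7 ± 1.78 FPKM (WT T3). Of the neighbours in that order, only cKO PTU and WT chow had libraries that did not overlap; that pair differs in both genotype and diet and was not tested.

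Fxyd1 was 685.6, 770.3 and 647.6 FPKM in WT hearts and 813.8, 741.9 and 676.8 FPKM in cKO hearts on chow. On PTU it was 620.4, 598.2 and 656.4 FPKM in WT and 592.3, 603.4 and 627.7 FPKM in cKO hearts. After T3 it was 782.3, 772.9 and 1022 FPKM in WT and 943.8, 1037 and 886.8 FPKM in cKO hearts. Both T3 groups stood above the PTU and chow groups of their genotype, and 1 WT heart stood well above the other 2 of its group. The means ran from 607.8 ± 18.1 (cKO PTU) and 625.0 ± 29.4 (WT PTU) through 701.2 ± 62.8 (WT chow) and 744.1 ± 68.6 (cKO chow) to 858.9 ± 141 (WT T3) and 955.8 ± 75.8 FPKM (cKO T3). Only WT chow overlapped the PTU group of its own genotype, and every pair of neighbours in this order overlapped.

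**Figure D1:**
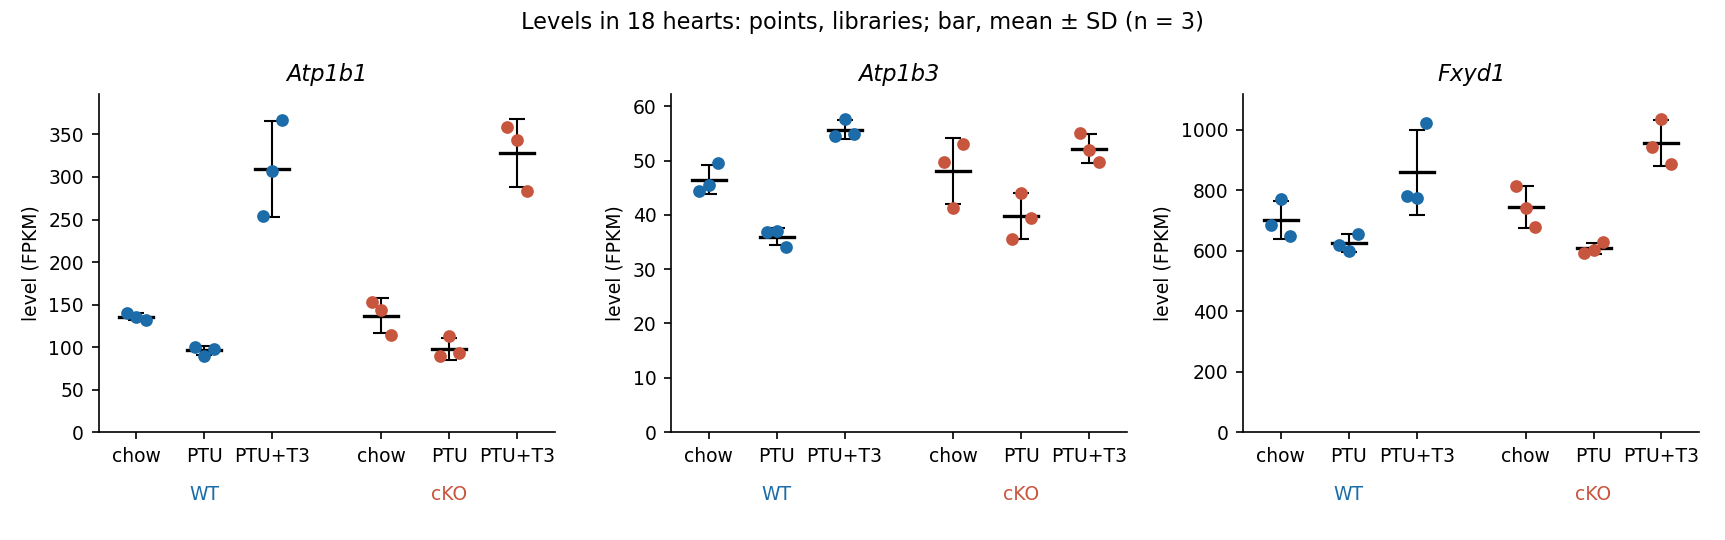
Level in FPKM (vertical axes, linear and from 0) of Atp1b1, Atp1b3 and Fxyd1 in each of the 18 hearts, by treatment and genotype; points are libraries, horizontal bars are group means and whiskers are the SD (n = 3). Atp1b1 lies between 254.2 and 367.5 FPKM in the 6 T3 hearts, above all others, while Atp1b3 and Fxyd1 move over a narrower range.

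PTU lowered Atp1b1 in both genotypes and Atp1b3 in WT hearts. In WT hearts Atp1b1 fell by 0.50 on the log2(FPKM + 1) scale (95% interval -0.79 to -0.20, adjusted p = 0.0233) and Atp1b3 fell by 0.36 (-0.56 to -0.16, adjusted p = 0.0165), by the limma fit across all tested genes. These are 2 of 3 genes lower at an adjusted p under 0.05, where 8.76% of all tested genes were lower and 8.02% higher. Fxyd1 was not called, at -0.16 (-0.41 to 0.08, adjusted p = 0.359), and its libraries overlapped. As a ratio of mean FPKM, PTU hearts held 0.708 of the chow level of Atp1b1, 0.774 of Atp1b3 and 0.891 of Fxyd1. In the hearts labelled cKO, Atp1b1 fell by 0.48 (-0.77 to -0.18, adjusted p = 0.0305). Atp1b3, at -0.27 (adjusted p = 0.0672), and Fxyd1, at -0.29 (adjusted p = 0.102), were not called there. The 3 Fxyd1 values on PTU lay below all 3 on chow, a pattern whose share over all genes was not computed. That is 1 of 3 lower, where 9.59% of tested genes were lower and 6.44% higher. These PTU calls were narrow. The WT call of Atp1b1 was lost without either of 2 chow hearts (adjusted p = 0.075 without replicate 1 and 0.0555 without replicate 2) or either of 2 PTU hearts (0.0732 without replicate 2 and 0.0522 without replicate 3), and its cKO call was lost in 7 of the alternatives. Among these were the fits without cKO chow replicate 1 (0.138) or 2 (0.0989) and without cKO PTU replicate 1 (0.112) or 3 (0.0822). The others were quantile normalization (0.056), rescaling to TPM (0.0881) and the fit on the compared groups alone (0.0829). The WT call of Atp1b3 was lost without chow replicate 3 (adjusted p = 0.0676), without PTU replicate 3 (0.0631), after rescaling to TPM (0.084) and without the heart highest in atrial genes in each group, called the atrial-rich hearts below (0.11). That last setting keeps 2 libraries per group. The heart left out had 10240 against 6020 FPKM of atrial genes in the next in cKO PTU, but only 3452 against 3311 FPKM in WT T3. Whether calls lost under it depend on atrial content was not tested.

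T3 raised all 3 genes above their level on PTU in both genotypes, in a comparison that shares its PTU hearts with the one above. In WT hearts Atp1b1 rose by 1.66 on the log2 scale (1.37 to 1.96, adjusted p = 2.59e-07), Atp1b3 by 0.62 (0.42 to 0.82, adjusted p = 8.86e-05) and Fxyd1 by 0.45 (0.20 to 0.69, adjusted p = 0.00538). The mean level was 3.22 times the PTU level for Atp1b1, 1.55 times for Atp1b3 and 1.37 times for Fxyd1. In the hearts labelled cKO the rises were 1.73 for Atp1b1 (1.44 to 2.03, adjusted p = 1.55e-07), 0.39 for Atp1b3 (0.19 to 0.59, adjusted p = 0.00323) and 0.65 for Fxyd1 (0.40 to 0.89, adjusted p = 0.000271). All 3 were called in each genotype. Of all tested genes 22.3% were higher and 21.8% lower in WT, and 24.9% higher and 21.8% lower in the hearts labelled cKO. No libraries of the 3 genes overlapped between PTU and T3, and the share of all genes without overlap was not computed. Ordered by log2 change, Atp1b1 ranked 136th from the highest of 12587 genes in WT and 126th in cKO hearts. Atp1b3 ranked 1400th and 2638th, and Fxyd1 2169th and 1384th. Thus Atp1b1 stood near the top of the response and the other 2 genes within its broad upper part. In the authors' deposited table for WT hearts, Atp1b1 went from 96.3 to 310 FPKM (q = 0.00034), Atp1b3 from 36.0 to 55.7 FPKM (q = 0.00034) and Fxyd1 from 625.4 to 860 FPKM (q = 0.0173). The Fxyd1 call in WT was lost without the heart highest in atrial genes in each group (0.31, adjusted p = 0.0758). The WT T3 heart left out there, replicate 3, was also the one with the highest Fxyd1 of its group, at 1022 FPKM. The Atp1b3 call in cKO hearts was lost under quantile normalization (0.22, adjusted p = 0.0987) and TPM (0.12, adjusted p = 0.498). TPM moved the median of all tested genes by -0.24 in that comparison, and relative to that median Atp1b3 was at 0.37.

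Set against chow, a comparison that shares its T3 and chow hearts with those above, only Atp1b1 stood clearly higher. It was higher by 1.17 in WT (0.87 to 1.46, adjusted p = 8.51e-05) and by 1.26 in cKO hearts (0.96 to 1.56, adjusted p = 2.43e-05), 61st and 59th from the highest of all genes. Its mean after T3 was 2.28 times the chow mean in WT and 2.40 times in cKO hearts, and the call held under every alternative run. Fxyd1 was called in the hearts labelled cKO at 0.36 (0.12 to 0.61, adjusted p = 0.0358) and not in WT at 0.28 (adjusted p = 0.111). Atp1b3 was called in neither, at 0.26 in WT (adjusted p = 0.0803) and 0.12 in cKO hearts (adjusted p = 0.391). So 1 of 3 was higher in WT, where 7.68% of tested genes were higher and 7% lower, and 2 of 3 in cKO hearts, where 11.7% were higher and 9.15% lower. The Fxyd1 call ended in 6 of the alternatives, among them without cKO chow replicate 2 (adjusted p = 0.0807) or 3 (0.144), without cKO T3 replicate 1 (0.0797) or 2 (0.142), and without the heart highest in atrial genes in each group (0.276).

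**Figure D2:**
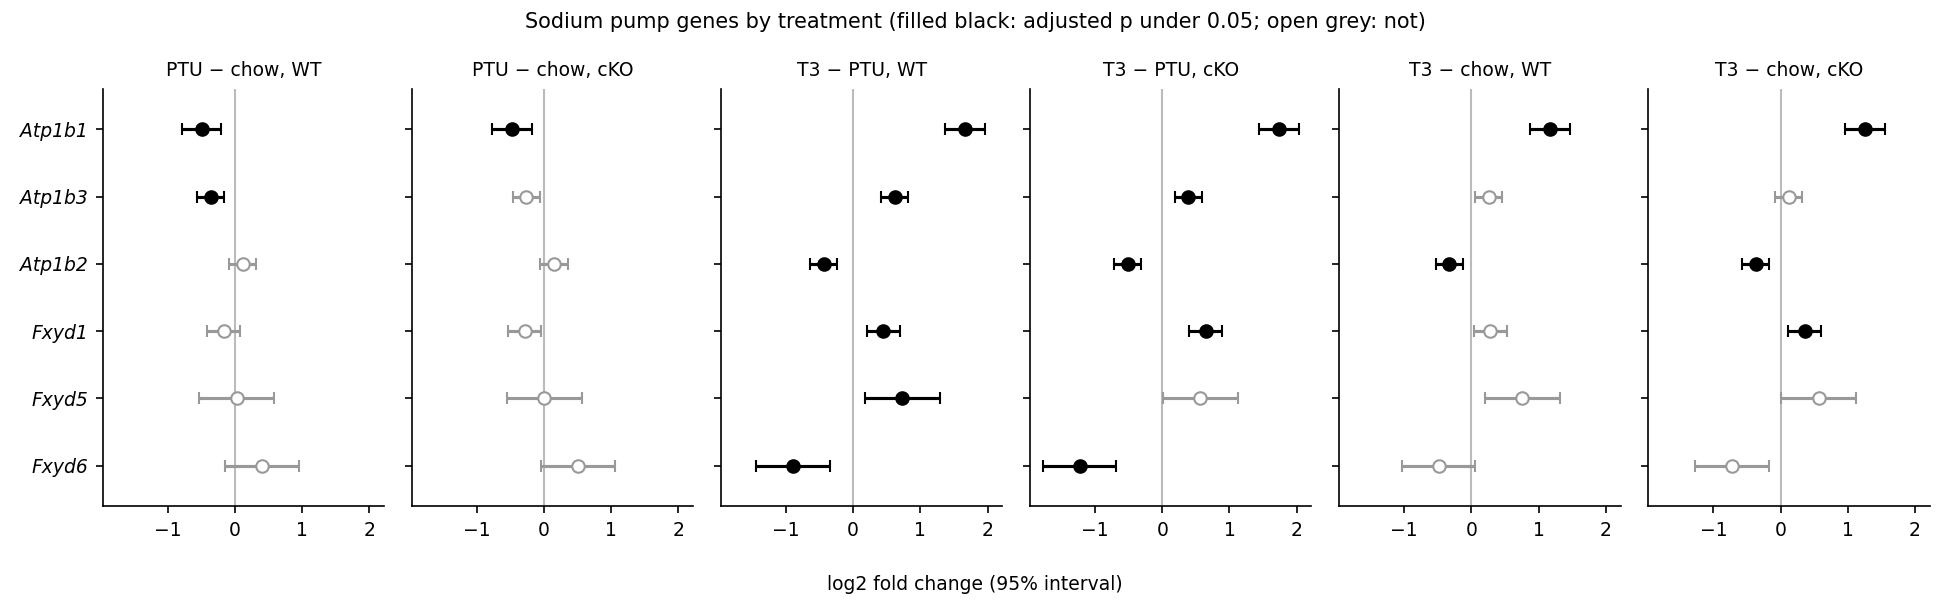
Difference in log2(FPKM + 1) with its 95% interval (horizontal axis, the same in every panel) for 6 sodium pump genes in the 6 treatment comparisons; filled black points have an adjusted p under 0.05 and open grey points do not. Atp1b1 reaches 1.66 and 1.73 after T3 against PTU, while Atp1b2 and Fxyd6 lie on the other side of 0.

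The genotype label made no difference that was called. Hearts labelled cKO differed from WT by 0.00, 0.02 and 0.09 for Atp1b1 on chow, PTU and T3, by 0.04, 0.13 and -0.09 for Atp1b3, and by 0.09, -0.04 and 0.16 for Fxyd1. Adjusted p ranged from 0.911 to 0.999, and 95% intervals lay between -0.29 and 0.41, so differences inside that range were not resolved with 3 hearts a group. Averaged over the 3 treatments the differences were 0.04 (-0.13 to 0.21), 0.03 (-0.09 to 0.14) and 0.07 (-0.07 to 0.21). The PTU effect in cKO hearts minus that in WT was 0.02 for Atp1b1 (-0.40 to 0.44), 0.09 for Atp1b3 (-0.19 to 0.38) and -0.13 for Fxyd1 (-0.47 to 0.22). For T3 against PTU the same difference was 0.07 for Atp1b1 (-0.35 to 0.49), -0.23 for Atp1b3 (-0.51 to 0.06, adjusted p = 0.70) and 0.20 for Fxyd1 (-0.14 to 0.55, adjusted p = 0.725). A call in one genotype and not the other, as for Atp1b3 on PTU or Fxyd1 after T3 against chow, is therefore not a shown difference between genotypes. By limma 0 of 3 genes, and 0% of all tested genes, were called in each of these 6 comparisons. At an unadjusted p under 0.05 there were 394 (3.13% of tested genes), 491 (3.9%) and 434 (3.45%) for the genotype on chow, PTU and T3. There were 209 (1.66%) for its average, and 805 (6.4%) and 821 (6.52%) for the PTU and T3 interactions. The authors' deposited tables have 80, 117 and 121 genes at a q under 0.05 between genotypes on chow, PTU and T3, none of them a member, with q = 0.999 for each.

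**Figure D3:**
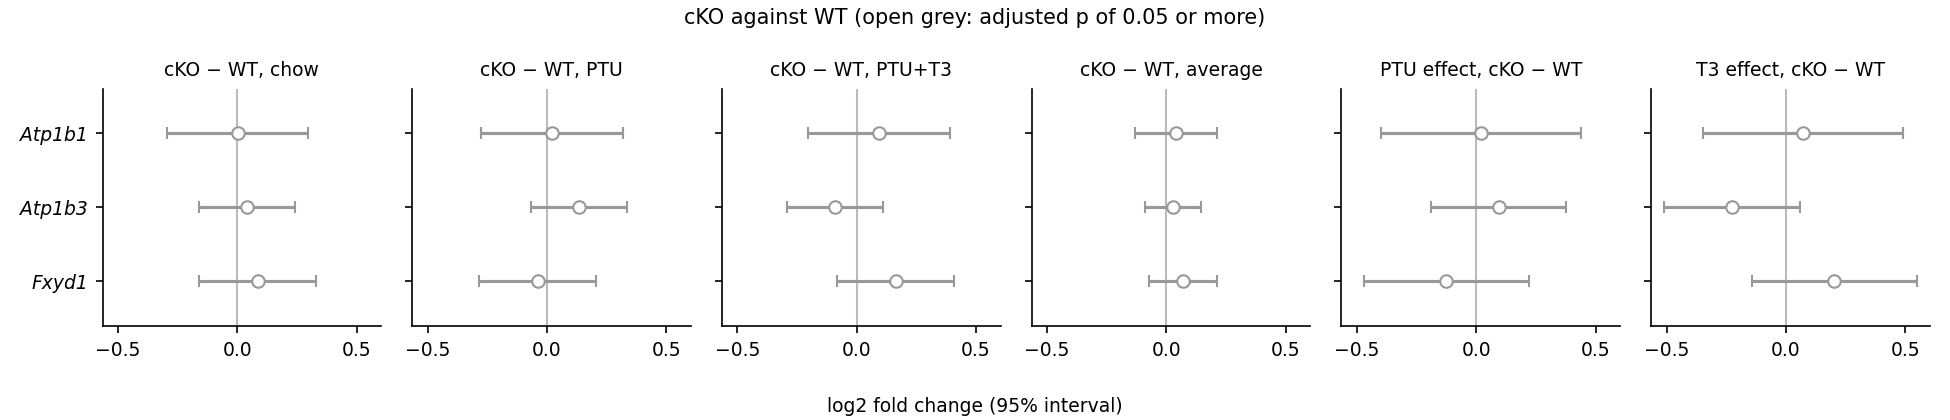
Difference between hearts labelled cKO and WT in log2(FPKM + 1) with its 95% interval (horizontal axis) on each treatment, averaged over treatments, and in the size of the PTU and T3 effects, for Atp1b1, Atp1b3 and Fxyd1. Every interval includes 0, and the average differences are 0.04, 0.03 and 0.07.

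Because FPKM is scaled for length, the levels of the beta subunits can be set side by side. Atp1b1 made up 71.3% ± 1.73 of the summed beta subunit transcripts (Atp1b1, Atp1b2, Atp1b3 and Atp1b4) in WT chow hearts, 68.1% ± 1.65 on PTU and 83.0% ± 2.44 after T3. In the hearts labelled cKO the shares were 70.3% ± 4.54, 66.1% ± 1.30 and 84.7% ± 1.19 (SD, n = 3). The lowest share after T3 was 80.7% and the highest in any other heart was 73.8%. The ratio of Atp1b1 to Atp1b3 was between 4.67 and 6.70 in the 6 T3 hearts and between 2.16 and 3.49 in the other 12. Summed beta subunit transcripts averaged 190.7 ± 1.62 FPKM on chow, 141.2 ± 5.58 FPKM on PTU and 371.7 ± 57.3 FPKM after T3 in WT, and 194.4 ± 18.4, 148.2 ± 16.5 and 387.7 ± 42.5 FPKM in cKO hearts (SD, n = 3). No T3 heart overlapped a chow heart in this sum, and no chow heart a PTU heart. These shares, ratios and sums are descriptions and were not tested.

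**Figure D4:**
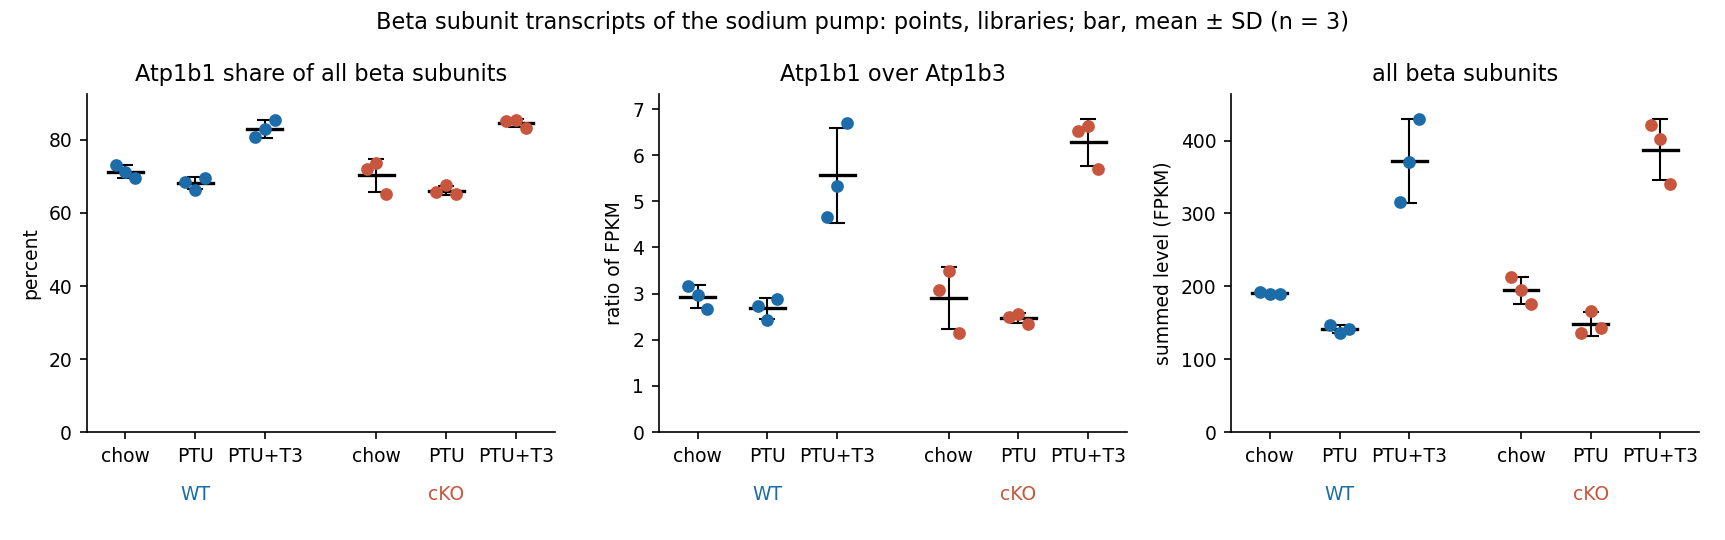
Beta subunit transcripts of the sodium pump in each of the 18 hearts: Atp1b1 as a percentage of all beta subunit FPKM, the ratio of Atp1b1 to Atp1b3, and the summed beta subunit FPKM (vertical axes from 0); points are libraries, bars are group means and whiskers are the SD (n = 3). The Atp1b1 share is 80.7% or more in every T3 heart and 73.8% or less in every other heart.

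Of 9 other beta subunit, FXYD and related genes, 6 passed the filter. By limma, T3 against PTU raised 2 and lowered 2 of the 6 in each genotype. Fxyd3, counted as raised in both, reached 1 FPKM only in T3 hearts and so passed the filter through them. Its calls after T3, here and against chow, are therefore not independent of the filter. The median change was 0.08 in WT and 0.25 in cKO hearts, against -0.00 and 0.00 over all tested genes, of which 22.3% rose and 21.8% fell in WT and 24.9% and 21.8% in cKO hearts. The minor beta subunit Atp1b2 moved opposite to Atp1b1 and Atp1b3, from 9.01 to 6.41 FPKM in WT (-0.44, adjusted p = 0.00163) and from 10.3 to 6.93 FPKM in cKO hearts (-0.51, adjusted p = 0.000419). Neither of these calls was lost under any alternative run. Against chow, 7.68% of tested genes were higher and 7% lower in T3 hearts of WT, and 11.7% and 9.15% in cKO hearts. Of the 6 genes, limma called Fxyd3 higher and Atp1b2 lower in WT, and Atp1b2 lower in cKO hearts. The authors' deposited table for WT called another pair, Fxyd5 higher (q = 0.00109) and Fxyd6 lower (q = 0.0132), and neither Fxyd3 (q = 0.362) nor Atp1b2 (q = 0.161). By limma Atp1b2 was at -0.33 in WT (adjusted p = 0.0328, a call lost in 8 of 30 alternatives, among them the fits without WT chow replicate 2 or 3 and without WT T3 replicate 1 or 2) and at -0.37 in cKO hearts (adjusted p = 0.013, or 0.0551 without cKO chow replicate 2). PTU alone lowered 1 of the 6, Fxyd2, in each genotype by limma, where 8.76% of tested genes were lower in WT and 9.59% in cKO hearts. The authors' deposited table also has Fxyd6 higher on PTU in WT, from 23.4 to 31.3 FPKM (q = 0.027), where limma gave 0.41 (adjusted p = 0.303).

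The FXYD relatives of Fxyd1 did not move as 1 group after T3 against PTU. Fxyd5, also called dysadherin, rose in WT (21.9 to 38.0 FPKM, 0.73, adjusted p = 0.0343, a call lost in 8 of 30 alternatives) and was at 0.56 in cKO hearts (adjusted p = 0.091). Fxyd6 fell by 0.89 in WT (30.8 to 15.8 FPKM, adjusted p = 0.011, or 0.0541 without WT PTU replicate 2) and by 1.23 in cKO hearts (33.3 to 13.4 FPKM, adjusted p = 0.00114). Fxyd2, the gamma subunit of the kidney pump, was low throughout, at 0.235 to 4.06 FPKM. It was lower on PTU in WT (-1.09, adjusted p = 0.01, a call lost in 2 of 29 alternatives) and in cKO hearts (-0.81, adjusted p = 0.0452, a call lost in 19 of 28 alternatives), and higher after T3 in cKO hearts (0.90, adjusted p = 0.0105, or 0.0617 without cKO PTU replicate 3). Fxyd3 stood at the table's floor of 0.01 FPKM in 8 libraries and averaged 1.72 FPKM in WT and 0.989 FPKM in cKO hearts after T3 (1.24 and 0.73 against PTU, adjusted p = 0.000775 and 0.0232). Outside the T3 hearts Fxyd3 was at most 0.879 FPKM, so it passed the filter only through the groups where it was high. The authors' deposited table did not call it in WT (q = 0.397), and the cKO call was lost in 4 of 28 alternatives, among them the fits without cKO PTU replicate 1 and without cKO T3 replicate 2 (up to 0.132). Fxyd7 was called by limma in none of the treatment comparisons. The other 3 genes were below the filter: Atp1b4 at no more than 0.0364 FPKM, and Atp12a and Fxyd4 listed at the floor in every library.

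Among 9 genes of sodium and calcium exchange, 5 passed the filter. PTU raised 1 of the 5 in each genotype, and T3 against PTU lowered 2 in each and raised 1 in cKO hearts, with medians of -0.32 in WT and -0.05 in cKO hearts, against -0.00 and 0.00 over all tested genes. Over all tested genes PTU raised 8.02% in WT and 6.44% in cKO hearts, and T3 against PTU lowered 21.8% in each and raised 24.9% in cKO hearts. The sodium-calcium exchanger Slc8a1 went opposite to Atp1b1: it rose on PTU from 28.7 to 48.7 FPKM in WT (0.74, adjusted p = 0.00208) and from 27.1 to 46.3 FPKM in cKO hearts (0.76, adjusted p = 0.00209). After T3 it fell to 26.6 and 24.3 FPKM (-0.86 and -0.91 against PTU, adjusted p = 0.000144 and 7.19e-05), and these 4 calls held in every alternative run. Slc4a4, a sodium bicarbonate cotransporter, fell by 0.41 in WT and by 0.67 in cKO hearts (adjusted p = 0.00303 and 4.22e-05), and the WT call was lost without the atrial-rich hearts (0.0613). Slc4a7, of the same family, rose in cKO hearts (0.41, adjusted p = 0.00713), a call lost under TPM and without the atrial-rich hearts (up to 0.25). Against chow, Slc4a4 was lower in cKO hearts after T3 (-0.51, adjusted p = 0.00195) and was at -0.28 in WT (adjusted p = 0.061). Slc8a1 was not called after T3 against chow, at -0.11 in WT (adjusted p = 0.632) and -0.15 in cKO hearts (adjusted p = 0.507). It thus went opposite to Atp1b1 only in the comparisons with PTU.

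Of 14 genes that act on the pump or anchor membrane proteins in heart muscle, 13 passed the filter, and after T3 against PTU 3 rose and 4 fell in WT and 5 rose and 6 fell in cKO hearts, with medians of -0.04 and -0.12, against -0.00 and 0.00 over all tested genes. Of all tested genes 22.3% rose and 21.8% fell in WT, and 24.9% rose and 21.8% fell in cKO hearts, so the WT counts lie near the share over all genes. Slmap, a membrane-anchored protein of muscle, rose by 0.86 in WT (43.2 to 79.5 FPKM, adjusted p = 0.000625) and 0.93 in cKO hearts (adjusted p = 0.000293). Ank3, an ankyrin that ties membrane proteins to the cytoskeleton, rose by 0.72 in WT (adjusted p = 3.58e-05) and 0.63 in cKO hearts (adjusted p = 8.87e-05). Prkca is a protein kinase C isoform that can phosphorylate phospholemman. It fell by 0.58 in WT (5.93 to 3.62 FPKM, adjusted p = 0.000215) and by 0.72 in cKO hearts (adjusted p = 2.47e-05). Ppp1r1a, an inhibitor of the phosphatase PP1, fell in cKO hearts (-0.72, adjusted p = 0.00229) and was not called in WT (-0.13, adjusted p = 0.542). No tested gene was called for the T3 interaction, so this is not a shown difference between genotypes. The calls of these named genes held in every alternative run, while some others in the counts after T3 against PTU were lost in up to 8 of 29. PTU alone raised 2 and lowered 2 of the 13 in WT, where 8.02% of tested genes were higher and 8.76% lower, and raised 2 and lowered 1 in cKO hearts, where the shares were 6.44% and 9.59%. All of these PTU calls were narrow: each was lost in 4 to 17 of 30 alternatives in WT and in 4 to 6 of 29 in cKO hearts. Against chow, T3 hearts had 2 higher and 1 lower in WT, beside 7.68% and 7% of tested genes, and 2 higher and 2 lower in cKO hearts, beside 11.7% and 9.15%. Each of these calls was lost in 7 to 11 of 30 alternatives in WT and in 1 to 4 of 29 in cKO hearts.

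Some markers of other cell types moved with treatment. Over all tested genes, T3 against PTU raised 22.3% and lowered 21.8% in WT, and raised 24.9% and lowered 21.8% in cKO hearts. Among 4 smooth muscle and pericyte genes the summed level was 199.5 to 284.9 FPKM in the PTU hearts, 329.8 to 414.7 FPKM in the chow hearts and 415.6 to 748.1 FPKM in the T3 hearts, the same order as Atp1b1. The Acta2 level alone went from 56.7 to 436.8 FPKM between PTU and T3 in WT and from 94.1 to 304.0 FPKM in cKO hearts; it rose by 2.98 in WT and 1.68 in cKO hearts (adjusted p = 2.91e-06 and 0.000432). Tagln and Rgs5 were not called and Myh11 fell in WT (-0.55, adjusted p = 0.0239). So 1 of 4 rose in each genotype, near the share over all genes. Among 4 macrophage genes, 3 rose in WT and 2 in cKO hearts, with sums of 46.2 to 137.5 FPKM on PTU and 132.7 to 186.9 FPKM after T3. The cKO PTU heart at 137.5 FPKM also had the highest atrial sum of all and the highest Atp1b1 and Atp1b3 of its group. The 4 endothelial genes summed to between 154.7 and 207.1 FPKM in every group, with 1 of them, Tie1, called after T3 in both genotypes, and the 5 fibroblast genes summed to between 525.6 and 1001 FPKM. Of the 6 cardiomyocyte genes, Ryr2 rose after T3 against PTU in both genotypes, Tnni3 rose in cKO hearts, and Actn2, Myl2 and Tnnt2 fell in WT. Red blood cell genes (Alas2, Hba-a1 and Hbb-bs) summed to 1050 to 1817 FPKM in the cKO chow hearts. In the cKO PTU hearts they summed to 334.6 to 829.7 FPKM, with no overlap, in the same direction as Atp1b1 on PTU. Alas2 and Hba-a1, 2 of the 3, fell (adjusted p = 0.00172 and 0.0111), where 9.59% of tested genes were lower. In WT the same sums overlapped, at 1081 to 1322 FPKM on chow and 564.1 to 1280 FPKM on PTU, and after T3 they were 700.6 to 1091 FPKM in WT and 565.2 to 1066 FPKM in cKO hearts. After T3 against PTU, Alas2 rose in cKO hearts (0.89, adjusted p = 0.0202). The part of these cell types in the changes of Atp1b1, Atp1b3 and Fxyd1 was not tested.

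Across the 18 libraries, which share the treatment groups, log2(FPKM + 1) of Atp1b1 had a Pearson correlation of 0.92 with Fxyd1 and 0.82 with Atp1b3, and Atp1b3 one of 0.71 with Fxyd1. After subtracting each group's mean the values were 0.68 for Atp1b1 with Fxyd1, 0.10 for Atp1b1 with Atp1b3 and -0.18 for Atp1b3 with Fxyd1. Within groups of these libraries, Fxyd1 thus varied with Atp1b1, and Atp1b3 varied little with either. How common such values are among other genes was not computed.

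The genes most like each member in their pattern over the 18 libraries were found among 12586 others by the same correlation. For Atp1b1 they were Ssr3 and Pgk1 (0.99 each), Avpi1, Tlcd2 and H2afy (0.98 each). Pgk1, a glycolytic enzyme, averaged 259.1 FPKM on PTU and 815.8 FPKM after T3 in WT. Least like it were Jam2 (-0.99), Myom2 (-0.98) and Lama5 (-0.98), and Myom2, a protein of the sarcomere M-band, averaged 740.6 FPKM on PTU and 27.4 FPKM after T3 in WT. For Atp1b3 the nearest were Tmem132a, Slc48a1, Metrnl, Gng10 and Plod1 (0.94 each), and the farthest were Brd9 (-0.97), Lmo7 (-0.96) and Fbxw7 (-0.95). For Fxyd1 the nearest were Apex2, D2Wsu81e and Yars2 (0.98 each), Polr2m and Tspan3 (0.97 each), and the farthest Nrbp2, Tom1l1 and Trim37 (-0.95 each). No gene was named for more than 1 member.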

How the data were processed

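Gene-level transcript values of 18 mouse hearts were deposited by the authors as FPKM, 1 column per library. Per the labels' protocols, polyA libraries were made from Trizol-extracted RNA with a TruSeq kit, version 2. That kit does not mark the strand. Bowtie2, Cufflinks and the mm10 build are named in the submitters' processing notes, without versions, and the sources used here do not name the annotation. Tables of group against group were deposited by the authors as well, with a group value, a p-value and a q-value per gene. Those values are named as theirs where used, and their log2 column, test statistic and other columns were not used. Values in the FPKM table stop at a floor of 0.01, and 5 cells hold no estimate.

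The 12587 genes that reached 1 FPKM in 3 or more libraries were analysed as log2(FPKM + 1), which understates the change of low genes. limma 3.58.1 (R 4.3.3) fitted a mean for each of the 6 groups over the 18 libraries together (trended prior, robust estimation, 12 residual degrees of freedom), and the fit was tested on simulated data. Benjamini-Hochberg adjustment covered all tested genes within each of 12 comparisons, and an adjusted p under 0.05 was called. Groups came from the genotype and treatment labels. The 3 genes and all lists (other pump genes, exchange, regulation and cell type markers) were chosen with earlier results of these data known. Some genes of the pump list, left out of its counts, and some marker genes are not reported here. Named from the lists were the remaining pump genes and up to 4 called genes of the other lists with the largest change, and, for likeness, the 5 nearest and 3 farthest genes. Alternatives were pseudocounts of 0.1 and 0.5, other filters, median centring, quantile normalization, TPM, a plain prior, sample weights, fits on the compared groups alone, leaving out each library, leaving out the heart highest in atrial genes in each group, and the authors' q-values. Gene positions are from GENCODE M21 (GRCm38) and promoter windows from RefSeq (GRCm38.p6). Among further marker lists, adipocyte genes summed to 0.34 to 17.4 FPKM and airway genes to 0.02 to 4.44 FPKM.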

Additional observations from a re-analysis of the deposited data

How the results depend on the processing

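Each log2 difference of Atp1b1, Atp1b3 and Fxyd1 was recomputed under up to 30 settings, which gave 1059 values: 1029 kept the direction and the side of the threshold, 24 lost a call, 6 gained one and 0 called values changed sign, while 32 values called in neither fit changed sign. All calls of Atp1b1 after T3, against PTU and against chow, held in every setting run. Besides the lost calls given with the results, calls were gained for Fxyd1 on PTU in WT under quantile normalization (-0.28, adjusted p = 0.0139), for Atp1b3 and Fxyd1 on PTU in cKO hearts with sample weights (adjusted p = 0.0292 and 0.042), for Atp1b3 on PTU in cKO hearts without cKO chow replicate 2 (0.0205) or cKO PTU replicate 2 (0.0355), and for Atp1b3 after T3 against chow in WT without cKO chow replicate 2 (0.0498). The counts of called genes moved by over 1.5 times as follows. On PTU against chow, WT had 2111 genes as reported, 3438 with sample weights and 920 without the heart highest in atrial genes in each group, and cKO hearts had 2017 as reported, 992 with only the compared groups and 1289 without the atrial-rich hearts. For T3 against chow, WT had 1848 as reported, 857 with only the compared groups and 723 without the atrial-rich hearts, and cKO hearts had 2629 as reported and 960 without the atrial-rich hearts. Without the low filter, 2, 4 and 1 genes were called between genotypes on chow, PTU and T3, 2 on average, and 3 and 1 for the PTU and T3 interactions, all 0 as reported. Between genotypes after T3, 1 gene was called without the atrial-rich hearts, and the authors' q-values gave 80, 117 and 121 genes on chow, PTU and T3. The causes were not tested. Leaving out 1 library at a time gave 1346 to 2247 genes for PTU in WT, 955 to 2130 for PTU in cKO hearts, 4732 to 5654 and 4957 to 5956 for T3 against PTU, 949 to 1936 and 1628 to 2720 for T3 against chow, 0 to 1 between genotypes on each treatment, 0 to 0 on average, 0 to 2 for the PTU interaction and 0 to 1 for the T3 interaction. TPM moved the share of calls that were higher from 40.2% to 67.2% for PTU in cKO hearts, from 53.4% to 26.1% for T3 against PTU in cKO hearts, from 52.3% to 33.7% for T3 against chow in WT and from 56.2% to 35.9% in cKO hearts, with medians of all genes at 0.14, -0.24, -0.09 and -0.10. No paired analysis was possible because the labels give the groups no shared replicate numbers, and the numbers used here only follow the order of the samples. Depth is unknown, so what it limits could not be measured.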
